A study of Saccharomyces cerevisiae with 6 samples.

Results

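The transcripts described here encode 10 proteins at the centre of the yeast TOR pathway: *TOR1* (YJR066W), *TOR2* (YKL203C), *KOG1* (YHR186C), *LST8* (YNL006W), *TCO89* (YPL180W), *NPR1* (YNL183C), *SIT4* (YDL047W), *PPH21* (YDL134C), *PPH22* (YDL188C) and *TIP41* (YPR040W). They were taken by ORF name and not by a rule on their values, though with earlier results of these data known. They are 10 of the 6212 ORFs in the deposited table. The table holds log2 ratios of mRNA in rapamycin-treated over mock-treated cells of the same strain, for *Saccharomyces cerevisiae* BY4741 (wild type), *ptc6* cells and *ptc1 ptc6* cells. Each was exposed in rich glucose medium to 200 ng/ml rapamycin or to vehicle for 1 h. All strains carry the *his3*, *leu2*, *met15* and *ura3* mutations of BY4741, and the mutants in addition lack the type 2C protein phosphatase gene *PTC6* (*ptc6::nat1* in the study's strain list) or both *PTC1* and *PTC6* (*ptc6::kanMX4 ptc1::nat1*), each as 1 strain. Cultures were split for treatment, and each strain was measured on 2 arrays with the dyes exchanged. Rapamycin-treated RNA carried Cy3 on array 1 of wild type and *ptc6* cells and on array 2 of *ptc1 ptc6* cells, and Cy5 on the others. Whether both arrays of a strain hold RNA of 1 culture or of separate cultures is not given in the sources used here. They were taken as 1 replicate, no test between strains was made, and SD values are over the 2 arrays, a spread that may be technical only.

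TORC1 is the complex that rapamycin, bound to the immunophilin Fpr1, inhibits. It contains Tor1 or Tor2 as the kinase, the scaffold Kog1, Lst8 and Tco89, whereas Tor2 and Lst8 also form part of the rapamycin-insensitive TORC2. Part of the signal leaves TORC1 through Tap42, which binds the catalytic subunits of the PP2A-like phosphatases (Pph21, Pph22 and Sit4) while TORC1 is active. Tip41 binds Tap42 and counteracts it, and Sit4 promotes the dephosphorylation of the GATA factor Gln3 and of the kinase Npr1, which stabilizes amino acid and ammonium permeases. Because control within the pathway is exerted largely on proteins that are already present, mRNA ratios do not report the activity of these complexes.

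Of the array data as a whole, 3476 ORFs had a value on both wild type arrays, 3925 on both *ptc6* arrays and 4295 on both *ptc1 ptc6* arrays. The spots of the deleted genes gave no value in the strains that lack them, while *PTC6* gave 1.11 and 0.62 in wild type cells, and *PTC1*, which *ptc6* cells retain, gave only -0.28, on the second wild type array. The 10 genes lie on 6 chromosomes, and on these the log2 ratios of wild type and *ptc1 ptc6* cells correlated across ORFs with Pearson's r of 0.968 to 0.973, which is a description since ORFs share their arrays. None of the 10 is on chromosome XII or XIII, where r was 0.0191 and 0.542. Shares over all ORFs that compare strains include the ORFs of these 2 chromosomes, and the main shares are also given without them, which was added after seeing the data. No coordinates are given because the table names no genome build.

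Of the 10 genes, 7 had a value on all 6 arrays, compared with 50.1% of all ORFs listed (3110 of 6212). The 3 genes with missing values were those of the large TORC1 subunits, *TOR1*, *TOR2* and *KOG1*. A spot without a value had been excluded by size or signal, or was missing, and these cannot be told apart here.

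**Figure D1:**
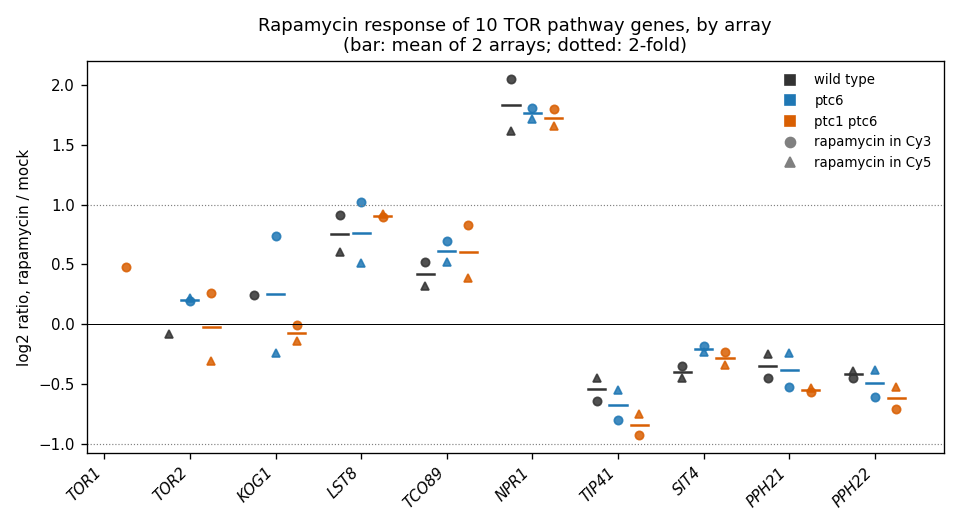
Log2 ratio of rapamycin-treated to mock-treated cells for the 10 genes on each of 6 arrays, with circles for rapamycin in Cy3, triangles for rapamycin in Cy5, and bars for the mean of 2 arrays where both had a value. *NPR1* lies above the dotted 2-fold line on every array (1.62 to 2.05), and *TIP41*, *SIT4*, *PPH21* and *PPH22* lie below 0 on every array without reaching the lower line at -1.

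A single gene of the 10, *NPR1*, had a mean past 2-fold, that is a log2 ratio above 1 or below -1, and it did so in all 3 strains. It was 1 of 7 genes measured on both arrays in wild type cells, and 1 of 9 in each mutant, and 0 genes were below -1 in any strain. The background was not small: 33.5% of all ORFs passed 2-fold in either direction in wild type cells (14.7% up, 18.8% down), 24.8% in *ptc6* cells (10.6% up, 14.2% down) and 27.4% in *ptc1 ptc6* cells (12.2% up, 15.2% down). The share among these genes was thus below the background in each strain, on numbers too small for more than a count. The genes fell on both sides of 0. All 7 genes with complete data kept to 1 side of 0 on all 6 arrays (67.7% of the 3110 ORFs with complete data did so, and 71% of the 2734 outside chromosomes XII and XIII), *LST8*, *TCO89* and *NPR1* above it (34.2%) and *SIT4*, *PPH21*, *PPH22* and *TIP41* below it (33.6%). Over these 7 genes the median log2 ratio was -0.35, -0.21 and -0.29 in wild type, *ptc6* and *ptc1 ptc6* cells, beside -0.005, 0.06 and -0.02 over all ORFs with complete data.

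**Figure D2:**
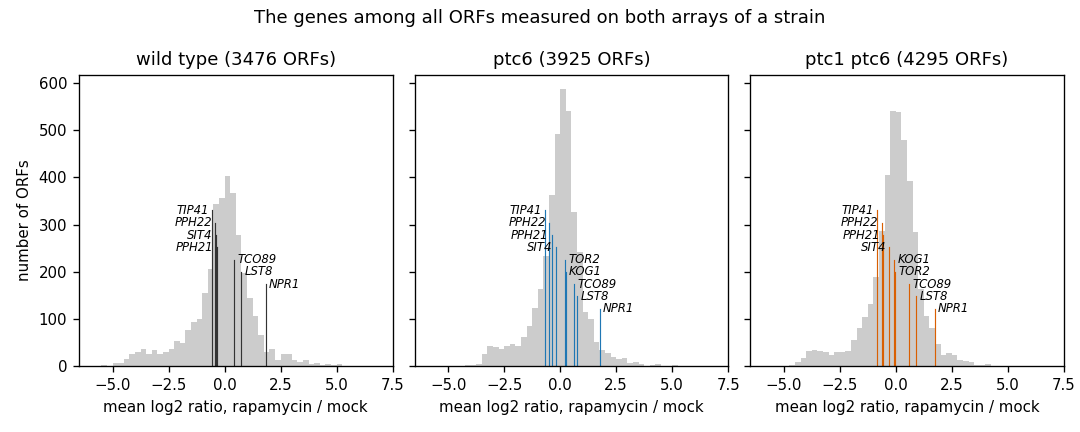
Histograms of the mean log2 ratio (x axis) of all ORFs measured on both arrays of each strain, with vertical lines at the genes described. *NPR1* stands in the upper part of the distribution in each strain, with 3.72% to 5.35% of ORFs above it, and the phosphatase genes lie below its median.

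The Tor kinases were the least well measured. For *TOR1*, which encodes the kinase found in TORC1 only, the sole value was 0.479 on *ptc1 ptc6* array 2. For *TOR2*, the essential paralog present in both complexes, the values were -0.08 on wild type array 2, 0.19 and 0.22 in *ptc6*, and -0.309 and 0.261 in *ptc1 ptc6* cells. The *ptc1 ptc6* arrays thus disagreed in sign for *TOR2* and their range includes the values of both other strains. *KOG1*, which encodes the raptor homolog that presents substrates to the kinase, had 0.24 on wild type array 1, 0.74 and -0.24 in *ptc6*, and -0.144 and -0.005 in *ptc1 ptc6* cells. The distance of 0.98 between both *ptc6* arrays is larger than any mean log2 ratio of this gene, and its *ptc6* mean of 0.25 ± 0.69 (SD, 2 arrays) cannot be told from 0. For all 3 genes no array was past 2-fold, and *TOR1* and *TOR2* are homologous, so that part of the signal of either spot could come from the other transcript; this was not tested.

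The smaller TORC1 subunits were better covered and lay above 0. *LST8*, whose WD-repeat product binds the kinase domain in both complexes, had log2 ratios of 0.91 and 0.60 on wild type arrays 1 and 2, 1.02 and 0.51 in *ptc6*, and 0.919 and 0.900 in *ptc1 ptc6* cells. The ranges of the 3 strains overlap, and only *ptc6* array 1 passed 2-fold. The means were 0.76 ± 0.22, 0.77 ± 0.36 and 0.91 ± 0.01 (SD, 2 arrays), or 1.69-, 1.70- and 1.88-fold. *TCO89*, which encodes a TORC1 subunit whose loss causes rapamycin hypersensitivity, had 0.52 and 0.32 in wild type, 0.70 and 0.52 in *ptc6*, and 0.387 and 0.828 in *ptc1 ptc6* cells. Its lower *ptc6* value equals its higher wild type value, so these strains were not separated. The means of *TCO89* were 0.42 ± 0.14, 0.61 ± 0.13 and 0.61 ± 0.31, or 1.34-, 1.53- and 1.52-fold.

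*NPR1* was the gene with the largest response of the set. Its log2 ratios were 2.05 and 1.62 in wild type, 1.81 and 1.72 in *ptc6*, and 1.659 and 1.801 in *ptc1 ptc6* cells. Both mutants lay within the range of the wild type arrays. The means of 1.84 ± 0.30, 1.77 ± 0.06 and 1.73 ± 0.10 correspond to 3.57-, 3.40- and 3.32-fold, and 5.35%, 3.72% and 4.14% of ORFs had a higher mean in the respective strain. *NPR1* minus the next gene in order, *LST8*, was 1.08 in wild type, 1.00 in *ptc6* and 0.82 in *ptc1 ptc6* cells, with no overlap of the arrays. Over the 6 arrays, the named ORFs closest to *NPR1* by mean absolute difference of log2 ratios, out of 2733 ORFs outside chromosomes XII and XIII, were *UBX6* (YJL048C; 0.135), *MRX18* (YBR056W; 0.151) and *RNY1* (YPL123C; 0.154). Their wild type means were 1.78, 1.84 and 1.72. The likeness is one of size and says nothing of shared control.

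The phosphatase genes and *TIP41* were all lower in rapamycin-treated cells, by less than 2-fold. *TIP41* was the lowest gene of the set in every strain, with log2 ratios of -0.64 and -0.45 in wild type, -0.80 and -0.55 in *ptc6*, and -0.753 and -0.932 in *ptc1 ptc6* cells. All values of the double mutant lay below both wild type values, and the *ptc6* range overlapped with each. The means were -0.55 ± 0.13, -0.68 ± 0.18 and -0.84 ± 0.13, that is 1.46-, 1.60- and 1.79-fold lower, and 28.0%, 20.2% and 17.6% of ORFs had a lower mean.

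*PPH21* and *PPH22* encode nearly interchangeable catalytic subunits of PP2A, and their spots gave similar values. *PPH21* had -0.45 and -0.25 in wild type, -0.53 and -0.24 in *ptc6*, and -0.535 and -0.572 in *ptc1 ptc6* cells. *PPH22* had -0.45 and -0.39, -0.61 and -0.38, and -0.524 and -0.707 on the same arrays. For both genes, each *ptc1 ptc6* value was below each wild type value and the *ptc6* arrays lay on both sides of the wild type arrays. The means of *PPH21* were -0.35 ± 0.14, -0.39 ± 0.21 and -0.55 ± 0.03, and those of *PPH22* were -0.42 ± 0.04, -0.50 ± 0.16 and -0.62 ± 0.13. On a single array both genes differed by at most 0.14, with a mean absolute difference of 0.0843. Transcripts of such close paralogs can hybridize to either spot of an array of whole ORFs, so these values may not be separate measurements.

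*SIT4*, the catalytic subunit through which Gln3 and Npr1 are dephosphorylated, went the other way among the strains. Its log2 ratios were -0.35 and -0.45 in wild type, -0.18 and -0.23 in *ptc6*, and -0.344 and -0.231 in *ptc1 ptc6* cells. Both mutants lay nearer 0 than both wild type arrays, in *ptc1 ptc6* cells by as little as 0.006 between the closest arrays. The means were -0.40 ± 0.07, -0.21 ± 0.04 and -0.29 ± 0.08, or 1.32-, 1.15- and 1.22-fold lower. *SIT4* could not be distinguished from *PPH21* or *PPH22* in wild type cells, where the order of the 4 genes below 0 had overlapping arrays at each step (gaps of 0.05, 0.02 and 0.13 from *PPH21* through *SIT4* and *PPH22* to *TIP41*). In *ptc1 ptc6* cells *SIT4* stood 0.27 above *PPH21* and *TIP41* stood 0.23 below *PPH22*, without overlap in either case, whereas *PPH21* and *PPH22* overlapped.

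The comparison with wild type cells addresses whether the responses of these genes differ in cells without the phosphatases. Both mutants are compared with the same 2 wild type arrays, so that the comparisons are not independent. In *ptc6* cells, the arrays of 1 of 7 genes did not overlap with those of wild type cells, *SIT4*, whose log2 ratio was 0.20 higher (0.12 to 0.27 over the 4 pairs of arrays). The background for such separation was 48.1% of 3323 ORFs (30.7% higher, 17.5% lower) and 47.4% of the 2813 outside chromosomes XII and XIII, and among the 1024 ORFs with a wild type mean between -1 and 0 it was 34.2% higher and 6.84% lower. The *ptc6* minus wild type differences of the other 6 genes ran from -0.13 (*TIP41*) to 0.19 (*TCO89*). For *NPR1* the difference was -0.07, with -0.33 to 0.19 over the pairs, and for *LST8* 0.01, with -0.40 to 0.42.

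In *ptc1 ptc6* cells, 4 of 7 genes were separated from wild type cells, beside a background of 46.7% of 3242 ORFs (21.7% higher, 25% lower), or 42.4% of the 2860 outside chromosomes XII and XIII (19.3% higher, 23.1% lower). *TIP41* was lower by 0.30 (-0.48 to -0.11 over the pairs of arrays), *PPH21* by 0.20 (-0.32 to -0.09) and *PPH22* by 0.20 (-0.32 to -0.07), and *SIT4* was higher by 0.11 (0.006 to 0.22). Of the 1008 ORFs with a wild type mean between -1 and 0, 19.2% were separated downwards, as *TIP41*, *PPH21* and *PPH22* were, and 23.9% upwards, as was *SIT4* (17.7% and 21.9% of 877 without chromosomes XII and XIII). With 7 genes and a background of this size, the count in itself is not a result about the set. For *LST8*, *TCO89* and *NPR1* the differences were 0.15, 0.19 and -0.11, and their arrays overlapped with those of wild type cells. The means of *TIP41*, *PPH21* and *PPH22* decreased from wild type through *ptc6* to *ptc1 ptc6* cells, 3 of the 4 genes with a wild type mean between -1 and 0, as did those of 17.6% of 976 ORFs in that range (18.8% of 847 without chromosomes XII and XIII), although the *ptc6* step was within the overlap of the arrays for each. Counts that include both *PPH21* and *PPH22* are limited further, because their spots may not be separate measurements. All 14 differences were within the range that held the central part of all ORFs, from the percentile of 5 to that of 95 (-0.47 to 0.81 for *ptc6* and -0.73 to 0.80 for *ptc1 ptc6* cells). The range for *ptc1 ptc6* cells narrowed to -0.58 to 0.56 without chromosomes XII and XIII, and all 7 differences were within it too.

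**Figure D3:**
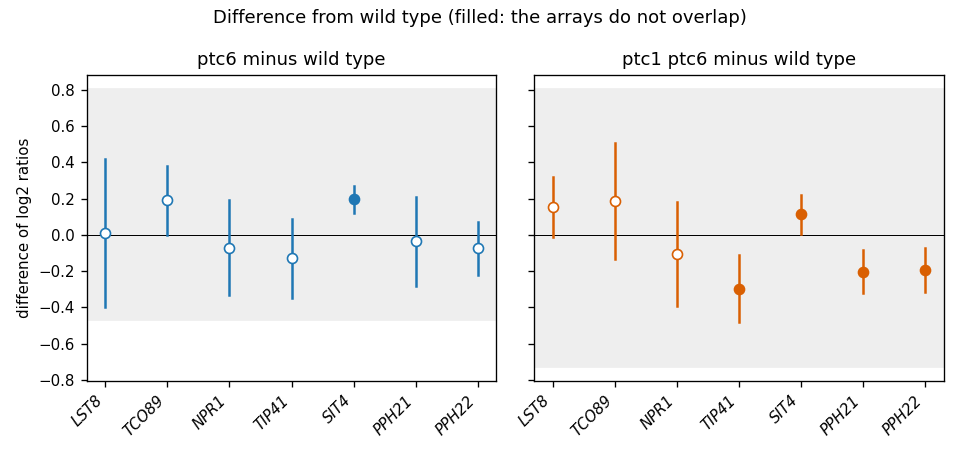
Difference of the mean log2 ratio from wild type cells for the 7 genes measured on all arrays, in *ptc6* (left) and *ptc1 ptc6* cells (right), with lines for the range over 4 pairs of arrays, filled points where the arrays of both strains do not overlap, and grey bands from the percentile of 5 to that of 95 over all ORFs. In the double mutant *TIP41*, *PPH21* and *PPH22* are below 0 and *SIT4* above it, and all points lie well inside the band.

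The arrays of a strain also differed by dye. The array with rapamycin in Cy5 minus the array with rapamycin in Cy3 had the same sign in all 3 strains for 6 of the 7 genes, which 49.7% of the 3110 ORFs with complete data also showed (52% without chromosomes XII and XIII). The difference was positive for *PPH21* (0.20, 0.29 and 0.04 in wild type, *ptc6* and *ptc1 ptc6* cells), for *PPH22* (0.06, 0.23 and 0.18) and for *TIP41* (0.19, 0.25 and 0.18). It was negative for *TCO89* (-0.20, -0.18 and -0.44), *NPR1* (-0.43, -0.09 and -0.14) and *SIT4* (-0.10, -0.05 and -0.11). *LST8* was the exception, with -0.31, -0.51 and 0.02. In 5 of the 7 genes the response was nearer 0 with rapamycin in Cy5 in all strains, against 25.5% of ORFs. Both counts include *PPH21* and *PPH22*, whose spots may not be separate measurements. Since each orientation is present once in each strain, a constant dye offset of a gene would cancel in the mean. A response made smaller in 1 orientation would not. Within a strain, dye and array cannot be told apart, and neither kind of effect was tested. When only arrays of equal orientation were compared (added once the values were known), the *ptc1 ptc6* minus wild type difference of *TIP41* was -0.29 in Cy3 and -0.30 in Cy5, that of *PPH22* -0.26 and -0.13, that of *PPH21* -0.12 and -0.29, and that of *SIT4* 0.12 and 0.11. The *ptc6* minus wild type difference of *SIT4* was 0.17 and 0.22. All of these are differences without overlap, so both orientations share a sign by construction. For the genes with overlap in *ptc1 ptc6* cells, the differences in Cy3 and Cy5 were -0.01 and 0.32 (*LST8*), 0.31 and 0.07 (*TCO89*), and -0.25 and 0.04 (*NPR1*).

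**Figure D4:**
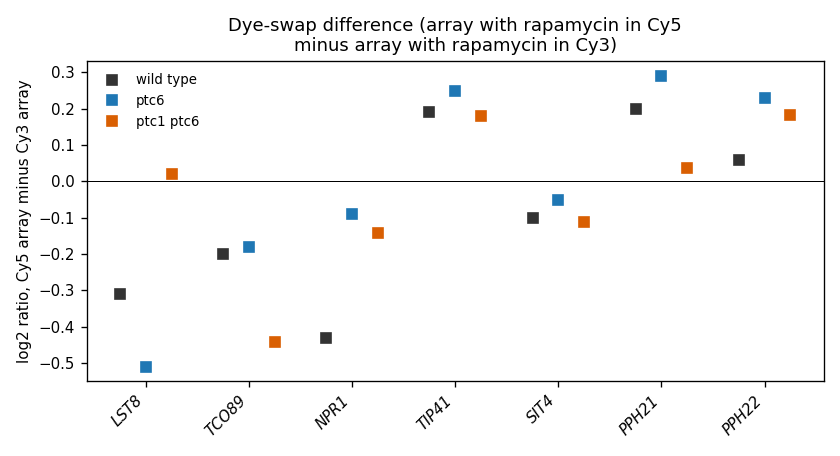
Log2 ratio on the array with rapamycin in Cy5 minus that on the array with rapamycin in Cy3, for 7 genes in 3 strains. The differences of *TIP41*, *PPH21* and *PPH22* are above 0 in every strain and those of *TCO89*, *NPR1* and *SIT4* below it, while *LST8* has 2 values below and 1 just above 0.

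The partners of these phosphatases were examined with a list of 18 genes, of which 15 lie outside chromosomes XII and XIII and 9, 12 and 10 were measured on both arrays of wild type, *ptc6* and *ptc1 ptc6* cells. None was up-regulated past 2-fold in wild type cells and 1 was down-regulated, beside 14.7% and 18.8% of all ORFs, and the median was 0.05 (0.02 over all ORFs measured in these cells). In *ptc6* cells 0 were up- and 1 down-regulated (10.6% and 14.2% of all ORFs), and in *ptc1 ptc6* cells 1 (*PPG1*) and 0 (12.2% and 15.2%). The gene below -1 was *PPH3*, which encodes the catalytic subunit of the PP4-like phosphatase, with -1.54 and -1.20 in wild type, -1.37 and -1.15 in *ptc6*, and -0.89 and -1.032 in *ptc1 ptc6* cells. The last catalytic subunit of the family, encoded by *PPG1* and named here after its values were seen, lay on the other side with 0.65 and 0.29, 0.79 and 0.72, and 1.122 and 0.906. Thus within the family of 5 catalytic subunits, wild type means ran from -1.37 for *PPH3* through -0.42, -0.40 and -0.35 for *PPH22*, *SIT4* and *PPH21* to 0.47 for *PPG1*. In *ptc1 ptc6* cells *PPH3* was 0.41 higher than in wild type cells and *PPG1* 0.54 higher, both without overlap of the arrays, as were 21.7% of all ORFs.

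Of the regulatory subunits, *TPD3*, the PP2A scaffold, had means near 0 in wild type (0.16 and -0.07) and *ptc6* cells (0.27 and -0.03). In *ptc1 ptc6* cells its mean was 0.33 (0.095 and 0.569). *CDC55* had no value on any array. *TAP42* is on chromosome XIII and had no value in wild type cells. It had 1.1 on *ptc6* array 1, and 0.495 and 0.853 in *ptc1 ptc6* cells, whose rows on this chromosome were only weakly related to wild type rows. The 2 genes for the PP2A activator homologs, also named after their values were seen, diverged. *RRD2* resembled *TIP41*, with -0.49 and -0.32 in wild type, -0.76 and -0.47 in *ptc6*, and -0.71 and -0.828 in *ptc1 ptc6* cells. *RRD1*, whose loss confers resistance to rapamycin, had 0.50 and 0.84 in wild type cells but -0.04 and 0.22 in *ptc6* cells, a difference of -0.58 without overlap, and a single value of 0.056 in *ptc1 ptc6* cells. Of all ORFs, 17.5% were lower without overlap in *ptc6* cells.

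Lists of genes upstream and downstream of TORC1 were counted in the same way, beside 14.7%, 10.6% and 12.2% of all ORFs up-regulated in wild type, *ptc6* and *ptc1 ptc6* cells. The lists were written with earlier results of these data known, so a share above the background is no independent result about a list. *FPR1*, the receptor of rapamycin, had no value on any array. Among the 15 genes upstream of TORC1 (the EGO and SEA complexes, and others), 1 of 7 measured was up-regulated in wild type cells, 1 of 10 in *ptc6* and 1 of 12 in *ptc1 ptc6* cells, with 0 down-regulated and a wild type median of 0.52, a share near the background. The gene was *SLM4*, an EGO complex subunit at the vacuole, with 1.66 and 1.77 in wild type, 1.61 and 1.49 in *ptc6*, and 1.037 and 1.301 in *ptc1 ptc6* cells, in decreasing order without overlap. Of all ORFs, 17.5% were lower than in wild type cells without overlap in *ptc6* and 25% in *ptc1 ptc6* cells. Among the 17 effectors, 6 were measured in wild type cells, and 3 of these were up-regulated and 0 down-regulated, with a median of 1.06, and 3 of 12 and 5 of 13 were up-regulated in *ptc6* and *ptc1 ptc6* cells. Those in wild type cells were *YAK1*, a kinase restrained by TORC1 and protein kinase A, with 1.20 and 1.65, and the GATA factor genes *GLN3* (1.80 and 1.97) and *GAT1* (1.63 and 2.01). In *ptc6* cells *YAK1* (1.08 and 1.17) and *GLN3* (1.37 and 1.55) were lower without overlap, and *GAT1* (1.51 and 1.87) overlapped. In *ptc1 ptc6* cells *GLN3* (1.626 and 1.797) was lower without overlap, with -0.003 between the closest arrays. There *YAK1* (1.13 and 1.475) and *GAT1* (2.027 and 1.498) overlapped. *SCH9*, the direct kinase substrate of TORC1, had -0.29 and -0.66 in wild type, -0.41 and -0.31 in *ptc6*, and -1.258 and -0.594 in *ptc1 ptc6* cells.

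Of the TORC2 list, 1 of 7 genes outside chromosomes XII and XIII was measured in wild type cells (*SLM2*, 0.49 and 0.17, named after its values were seen), and 2 in *ptc6* and 3 in *ptc1 ptc6* cells, and 0 were past 2-fold. Of 9 genes of the permease system controlled by Npr1, 4 were up-regulated in each strain and 0 down-regulated, beside the same 14.7%, 10.6% and 12.2% of all ORFs up-regulated, with a median of 0.51 in wild type cells. This list too was written with earlier results known, so its share is no independent result. The ammonium permease gene *MEP1* had 2.89 and 2.83 in wild type, 2.83 and 2.71 in *ptc6*, and 2.816 and 2.491 in *ptc1 ptc6* cells. *ALY1*, which encodes an arrestin-like adaptor for permease traffic, had 1.27 and 1.55, 1.31 and 1.35, and 1.034 and 1.675. The others were *GAP1*, the general amino acid permease (mean of 7.11 in wild type, 6.70 in *ptc6* and 5.31 in *ptc1 ptc6* cells), and *MEP2* (5.98, 5.41 and 4.70). For *ALY1*, as for *NPR1*, the *ptc6* and wild type arrays overlapped, and for *MEP1* they shared the value of 2.83. *MEP1* was lower in *ptc1 ptc6* cells without overlap, with -0.014 between the closest arrays. *GAP1* and *MEP2* were lower in both mutants without overlap, but the closest *ptc6* and wild type arrays differed by -0.09 and -0.01. Over all ORFs, 17.5% were lower without overlap in *ptc6* and 25% in *ptc1 ptc6* cells.

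**Figure D5:**
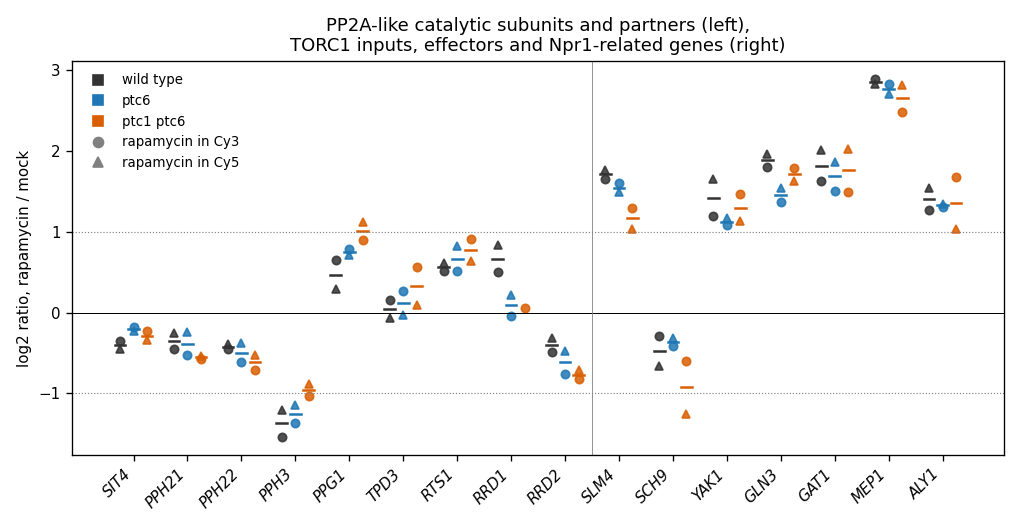
Log2 ratio on each array for the PP2A-like catalytic subunits and their partners (left of the line, with the regulatory subunit *RTS1*) and for genes upstream and downstream of TORC1 (right), with symbols as in the plot of the 10 genes by array. *PPH3* is the single gene of the left group with a mean below -1 in wild type cells, and *SLM4*, *YAK1*, *GLN3*, *GAT1*, *MEP1* and *ALY1* lie above 1 on all arrays.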

How the data were processed

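The authors spotted PCR-amplified ORFs, quantified the scanned arrays with GenePix Pro, excluded spots under 120 µm or 150 fluorescence units, pre-processed the data with GEPAS, and deposited 1 log2 ratio (rapamycin-treated over mock-treated) per ORF for every array. Their method of normalization is not given in the sources used here. Intensities were not analysed, so signal over background is unknown. Array medians lay between 0.01 and 0.10, and the values were not normalized again.

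A gene's value was the mean log2 ratio of both arrays of a strain, with a value required on each, and genes above 1 or below -1 were past 2-fold. Arrays of 2 strains did not overlap when all values of 1 strain exceeded those of the other. The arrays of a strain were taken as 1 replicate, since the sources used here do not say that they come from separate cultures, and no test was made. ORF names were matched to the RefSeq R64 gene table for symbols, and all 10 matched. Sequences and coordinates are not given.

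The 10 genes, the pathway lists (from general knowledge) and all choices were made with earlier results of these data known. All 10 genes are named. Of the lists, those past 2-fold in each wild type hybridization, *FPR1*, *SCH9*, *TAP42*, *CDC55* and *TPD3* are named, with the 3 ORFs nearest to *NPR1*, and any other gene was chosen after its values were seen. List genes on chromosomes XII and XIII were left out because their *ptc1 ptc6* rows were unrelated or weakly related to wild type rows. Alternatives were to accept ORFs measured on 1 array, to centre arrays on their medians, to average linear ratios, to set the threshold at 1.5- or 3-fold, to require 2-fold on both arrays, to keep chromosomes XII and XIII, and to leave out single arrays. Comparing arrays of 1 dye orientation, and background shares without chromosomes XII and XIII, were added after seeing the data. Mutant against wild type arrays without the drug were not analysed here. The steps were tested on simulated data. Python 3.11.15, numpy 2.4.6, pandas 2.3.3 and matplotlib 3.10.9 were used.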

Additional observations from a re-analysis of the deposited data

Results flagged for a closer look

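*TOR2* had its single wild type value (-0.08) below 0 and both *ptc6* values (0.19 and 0.22) above 0, a difference of 0.285 in the mean of the values present. *KOG1* had its single wild type value (0.24) above 0 and both *ptc1 ptc6* values (-0.144 and -0.005) below 0, a difference of -0.31. Both stand here because every array of 1 strain lay on the opposite side of 0 from every array of the other. The share of all ORFs that meet this rule is not given here, so the flag may be common. Neither difference was tested, each rests on 1 wild type array, and the 2 *ptc6* arrays of *KOG1* were themselves on opposite sides of 0 (0.74 and -0.24).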

How the results depend on the processing

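No paired analysis was possible because the comparisons between strains come from no test. *NPR1* was past 2-fold in every strain under every alternative run. Of the 7, 9 and 9 genes measured on both arrays of wild type, *ptc6* and *ptc1 ptc6* cells, 2, 4 and 5 passed 1.5-fold, and 1 passed 3-fold in each. The share of all ORFs past these thresholds was not computed, so these counts cannot be read as a result about the genes. Leaving out an array gave 1 gene past 2-fold throughout except for 2 (with *LST8*) without *ptc6* array 2. The median over the genes measured depended on which were measured. It was -0.08 in wild type cells with a value on at least 1 array, and without an array it ran from -0.165 to -0.055 in wild type, from -0.23 to 0.19 in *ptc6* and from -0.31 to 0.13 in *ptc1 ptc6* cells, against -0.35, 0.21 and -0.07. Of the 32, 45 and 47 genes of the pathway lists measured in wild type, *ptc6* and *ptc1 ptc6* cells, 9, 9 and 11 were past 2-fold. Over all ORFs, 33.5%, 24.8% and 27.4% were. The lists had 14, 15 and 20 genes past 1.5-fold and 6, 4 and 5 past 3-fold, for which no share of all ORFs was computed. In *ptc1 ptc6* cells they had 8 with 2-fold required on each array and 14 with chromosomes XII and XIII kept. Of 269 recomputed values of single genes, 264 moved by less than their spread between arrays, and 19 changed sign. The 264 are not a measure of robustness. Leaving out 1 of 2 arrays always moves a mean by less than the SD over both. Accepting values on 1 array leaves genes measured on both arrays unchanged. The 5 values that moved further all came from centring the arrays. None of the 19 was a strain difference without overlap or a log2 ratio of *NPR1*. Leaving out arrays could not change the sign of these, because all their arrays or pairs of arrays share it. The 19 include 4 values of the *NPR1* strain difference. Without wild type array 1 it went from -0.07 to 0.145 in *ptc6* and from -0.11 to 0.11 in *ptc1 ptc6* cells. On the Cy5 arrays alone it was 0.10 and 0.04. The same genes (*SIT4* in *ptc6*, and *SIT4*, *PPH21*, *PPH22* and *TIP41* in *ptc1 ptc6* cells) were separated from wild type cells after centring each array. Precision is limited by the 2 arrays per strain, and differences of 0.1 to 0.3 as seen here between strains are of the size of the differences between arrays of 1 strain (median of 0.20, 0.23 and 0.142 over the genes measured).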
